A study of Drosophila melanogaster with 3 samples.

Results

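Stwl, the product of stonewall (stwl), is a nuclear protein known for its role in the upkeep of germline stem cells in the Drosophila ovary. Its binding was examined here at 9 genes of the bone morphogenetic protein (BMP) pathway, out of 13945 protein-coding genes on the 6 main chromosome arms: the ligand genes dpp and gbb, the receptor genes tkv, sax and put, the transducer genes Mad and Med, the inhibitor gene Dad and the nuclear cofactor gene shn. The genes were listed by name, and a peak was assigned to a gene if its summit lay inside the gene or within 5 kb of one of its transcription start sites (TSSs). The data are chromatin immunoprecipitation sequencing (ChIP-seq) peak lists from whole Drosophila melanogaster embryos, 0 to 10 hours old, of a transgenic line that stably expresses Stwl fused at its C-terminal end to GFP, and chromatin was pulled down with an antibody to GFP. All 3 biological replicates belong to this 1 group, so no conditions were compared, and a peak cannot be placed in a cell type. Beside 1 peak list for each replicate, there is a list from the pooled reads and a list of 7241 pooled peaks that passed the irreproducible discovery rate (IDR), a filter on agreement between replicates. Signal values were assigned by the authors and their scale differs between lists, so replicates are set side by side by rank (1 is the strongest of 30000) or by the signal relative to the median IDR site of that replicate. The peaks were called against 1 control library, and read depth is unknown.

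In the BMP pathway a secreted ligand brings together type I and type II receptor kinases, the type I receptor phosphorylates the transducer Mad, and Mad enters the nucleus with its partner Med to switch genes on or, together with Shn, to silence them. In the early embryo the pathway patterns the dorsal side, and in the ovary Dpp and Gbb from the niche keep germline stem cells undifferentiated by silencing bam. Dpp, the fly counterpart of mammalian BMP2 and BMP4, and Gbb, a relative of BMP7, are the ligands. Tkv and Sax are type I receptors and Put is a type II receptor.

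The sequences at the sites on which the results turn are shown first. All are from the plus strand of the RefSeq Release 6 (dm6) genome, cover bases outside annotated exons within 100 bp of the summit, and carry in capitals each match, on either strand, to the motifs TATCGATA (the DNA replication-related element, DRE), GGTCACAC (core of the M1BP motif), CATCNCTA (core of promoter motif 7), CAGCTG (an E-box), GAGAG (the word of GAGA factor) and CAGGTAG (the word of Zelda). The site in an intron of Mad has the highest signal value among the 9 genes, and the one upstream of Dad ranks high in every replicate. Sites at put, Med and tkv are shown because they sit at the start of the gene.
Mad intron, chr2L:3158618-3158818: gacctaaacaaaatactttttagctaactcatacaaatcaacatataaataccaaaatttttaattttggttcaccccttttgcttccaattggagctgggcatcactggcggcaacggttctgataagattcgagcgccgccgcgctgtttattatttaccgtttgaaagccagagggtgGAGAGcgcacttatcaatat
Dad upstream, chr3R:17053502-17053702: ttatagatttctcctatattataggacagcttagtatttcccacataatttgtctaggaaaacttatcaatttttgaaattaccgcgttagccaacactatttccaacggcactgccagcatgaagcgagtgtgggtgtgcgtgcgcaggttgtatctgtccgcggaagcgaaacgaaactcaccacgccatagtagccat
put and His4r, chr3R:14625704-14625754: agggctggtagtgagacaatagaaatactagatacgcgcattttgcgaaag
Med and CycG, chr3R:31610979-31611045: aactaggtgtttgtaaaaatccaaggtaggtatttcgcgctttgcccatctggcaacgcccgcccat
tkv upstream, chr2L:5271385-5271469: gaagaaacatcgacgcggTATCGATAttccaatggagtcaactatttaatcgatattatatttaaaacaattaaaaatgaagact

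The stretch at put is the whole gap between the TSSs of put and the divergent His4r, and the one at Med is the whole gap between the TSSs of Med and the nearest divergent start of CycG. The summit at tkv itself lies 15 bp inside the transcript, and the printed bases are those upstream of it, with a DRE 19 to 26 bp from the TSS. None of the printed stretches at Dad, put and Med holds a capital letter, which says only that these 6 words are not in them.

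IDR summits were found at 8 of the 9 genes, dpp being the exception, and 21 summits fell in their windows. Across the genome 65.3% of protein-coding genes had an IDR summit by this rule. Longer windows can hold more summits, and the median window of all protein-coding genes was 10001 bp. The windows of the 9 genes summed to 239 kb, and those of tkv and shn, at 57385 and 63309 bp, held 5 summits each. Within 500 bp of a TSS, the distance used here for a promoter, 6 of the 9 genes had an IDR summit (gbb, tkv, sax, put, Med and Dad), against 42.1% of all protein-coding genes. Mad and shn had summits away from their TSSs only. In the pooled list and in each replicate list, none of which is filtered by IDR, 8 of the 9 genes had a promoter summit and dpp had none, where 56.1% of genes had one in the pooled list and 57.2%, 55.6% and 57.2% in replicates 1, 2 and 3. All 9 genes had some summit in their windows in each of those 4 lists, as did 79.1% of genes in the pooled list and 85.6%, 83.3% and 79.7% in the replicates. Consensus lists, used in place of the IDR list, kept pooled summits with a match within 150 bp among the strongest 7241 summits of each replicate used. A replicate left out still contributed to the pooled peaks. The 21 summits became 10 with all 3 replicates and 10 without replicate 3. tkv lost its promoter call with all 3 replicates, without replicate 1 and without replicate 3.

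**Figure D1:**
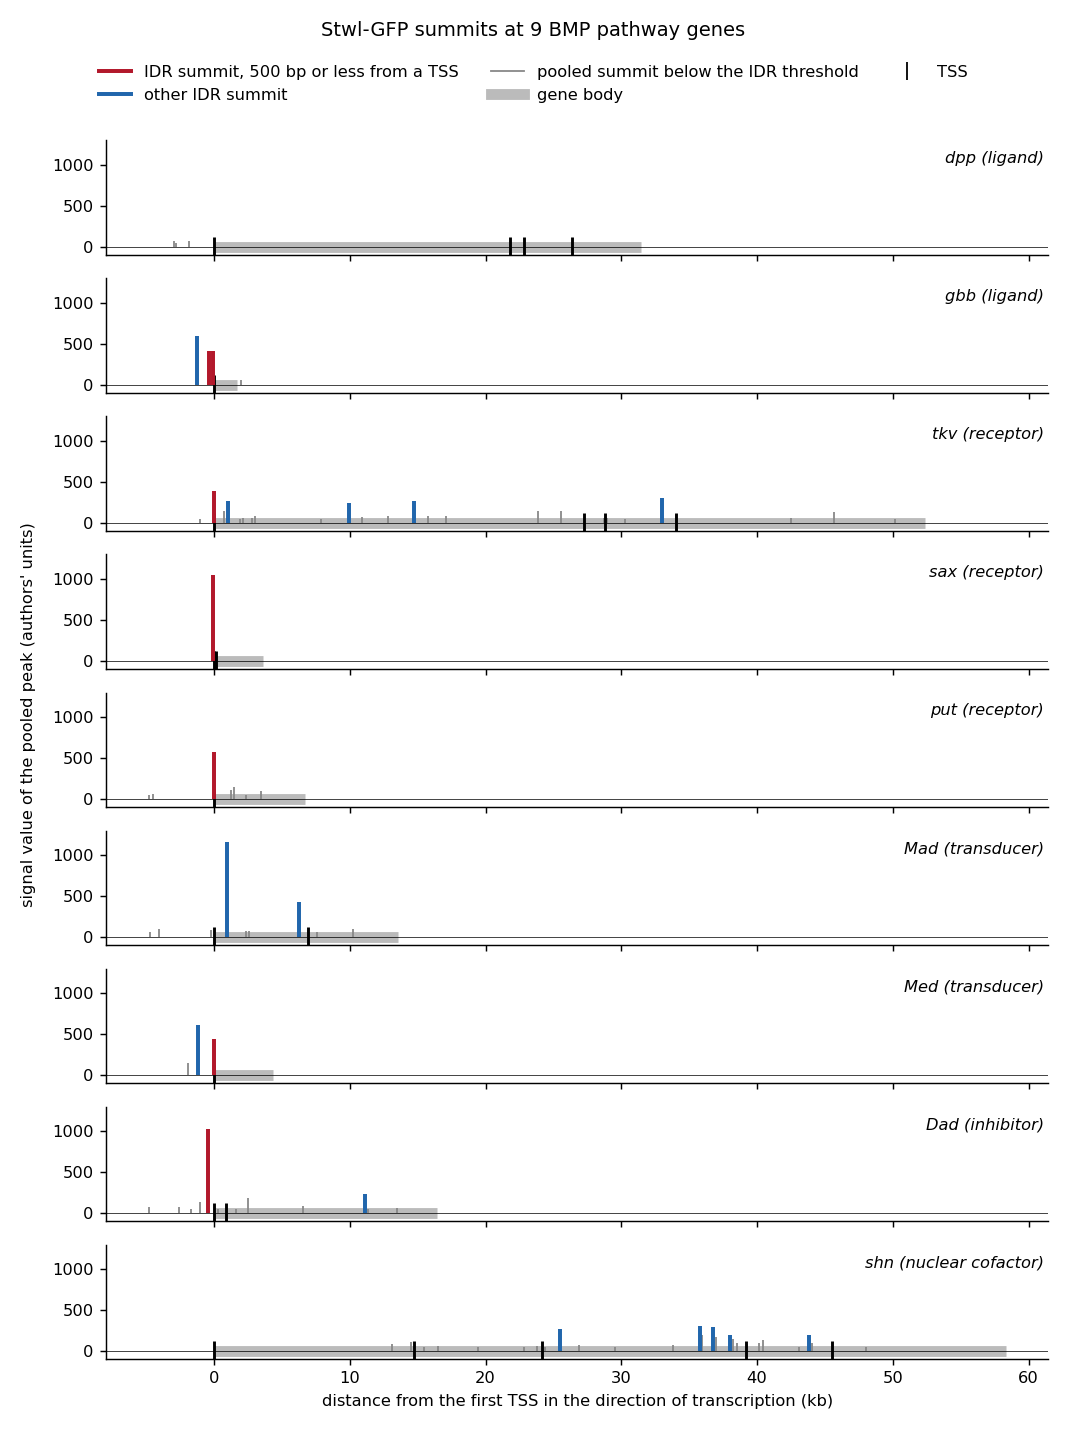
Summits of the pooled list along the 9 genes, each drawn from its first TSS in the direction of transcription (x axis, kb) with the authors' signal value as height (y axis). Red and blue lines are IDR summits, grey lines are pooled summits below the IDR threshold, grey bars are gene bodies and black ticks are TSSs; dpp has no summit in its body, short genes have theirs at the start, and tkv and shn carry 5 IDR summits each.

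The ligand genes differed from each other. dpp (FBgn0000490, chr2L:2428372-2459823, plus strand) spans 31452 bp with 4 TSSs, and no pooled summit lay inside it. Of the 631 protein-coding genes at least as long, 79.4% had a pooled summit inside. Only 3 pooled summits fell in its window, 1848 to 2969 bp upstream of the first TSS, with ranks of 16874, 18384 and 28829, and none of them had a match within 150 bp in all 3 replicates. Replicate 2 listed 2 summits inside the gene, and replicates 1 and 3 listed none. The pooled summit nearest to the other TSSs lay 7071 bp downstream of the fourth, beyond the end of the gene and outside the window, with rank 8758 and below the IDR threshold. The nearest IDR summit lay 7769 bp upstream of the first TSS, with a signal value of 915 and 227 bp from a TSS of CG9886. Of the 633 genes with a window at least as long as that of dpp (36452 bp), 72.8% had an IDR summit in it.

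gbb (FBgn0024234, chr2R:23851562-23853247, plus strand), the other ligand gene, is 1686 bp long and had 3 IDR summits, all upstream of its single TSS. The strongest lay 1248 bp upstream with a signal value of 597 and ranked 2331, 6042 and 1426 in replicates 1, 2 and 3. It sits 13 bp from a TSS of eIF6, a translation factor gene, and in an intron of ytr. The second lay 92 bp upstream of gbb with a signal value of 422 and ranked 2292, 1663 and 4992. It is nearer to a TSS of the divergent gene ytr, at 10 bp, and the third, 357 bp upstream with a signal value of 412, is nearer to ytr as well and had a match in replicate 3 only. Replicate 2 was thus the weakest at the first site and the strongest at the second, and the 2 sites overlapped in rank. All 3 summits are nearest to a TSS of another gene, so counting each summit only for the gene with the nearest TSS left gbb with none.

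Among the receptor genes, sax had the strongest site. sax (FBgn0003317, chr2R:7806484-7810067, plus strand) had 1 IDR summit, 42 bp upstream of its first TSS, with a signal value of 1051, and it ranked 842, 907 and 448 in replicates 1, 2 and 3. It was the only pooled summit in the window of the gene. It lies inside none of the annotated genes, and the divergent gene Nop17l starts within 500 bp of it, with 99 bp between the closest TSSs of the pair. The window of 100 bp to either side of the summit holds both a DRE, 10 to 17 bp inside the transcript from the first TSS, and the M1BP core, 6 to 13 bp upstream of it.

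put (FBgn0003169, chr3R:14619030-14625703, minus strand) also had 1 IDR summit, 14 bp upstream of its single TSS, with a signal value of 580. Its ranks were 4032, 2823 and 1711 in replicates 1, 2 and 3, all below those of sax in strength, without overlap. The divergent gene His4r, which encodes histone H4, starts 52 bp away, so the summit lies in the 51 bp stretch printed above. The core of motif 7 lies 21 to 28 bp inside the put transcript. A further 6 pooled summits fell in the window of put below the IDR threshold, and none of them had a match in all 3 replicates.

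tkv (FBgn0003716, chr2L:5219000-5271384, minus strand) is the second longest of the 9 genes, at 52385 bp with 4 TSSs (numbered in the direction of transcription), and carried 5 IDR summits inside its body. The strongest lay in the 5' UTR, 15 bp from the first TSS, with a signal value of 388 and ranks of 4687, 8068 and 3158 in replicates 1, 2 and 3. The other 4 lay in introns, with signal values of 303, 275, 271 and 250. They stood 1056 bp upstream of TSS 4, 12525 bp upstream of TSS 2, and 1024 and 9952 bp downstream of TSS 1. None of the other 3 TSSs had an IDR summit within 500 bp, although pooled summits below the threshold lay 49 bp from TSS 3 and 24 bp from TSS 4, with ranks of 20944 and 12857. The intronic pair farthest from a TSS of tkv varied most in rank. Both were nearer to a TSS of lncRNA:CR44744, at 2490 bp for the one 9952 bp from TSS 1 and 2278 bp for the other. The one 9952 bp from TSS 1 ranked 21174 in replicate 1, 8172 in replicate 2 and 5500 in replicate 3, and the one 12525 bp from TSS 2 ranked 7719, 15668 and 4838. In replicate 3, and in neither of the others, all 5 sites were among the strongest 7241.

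**Figure D2:**
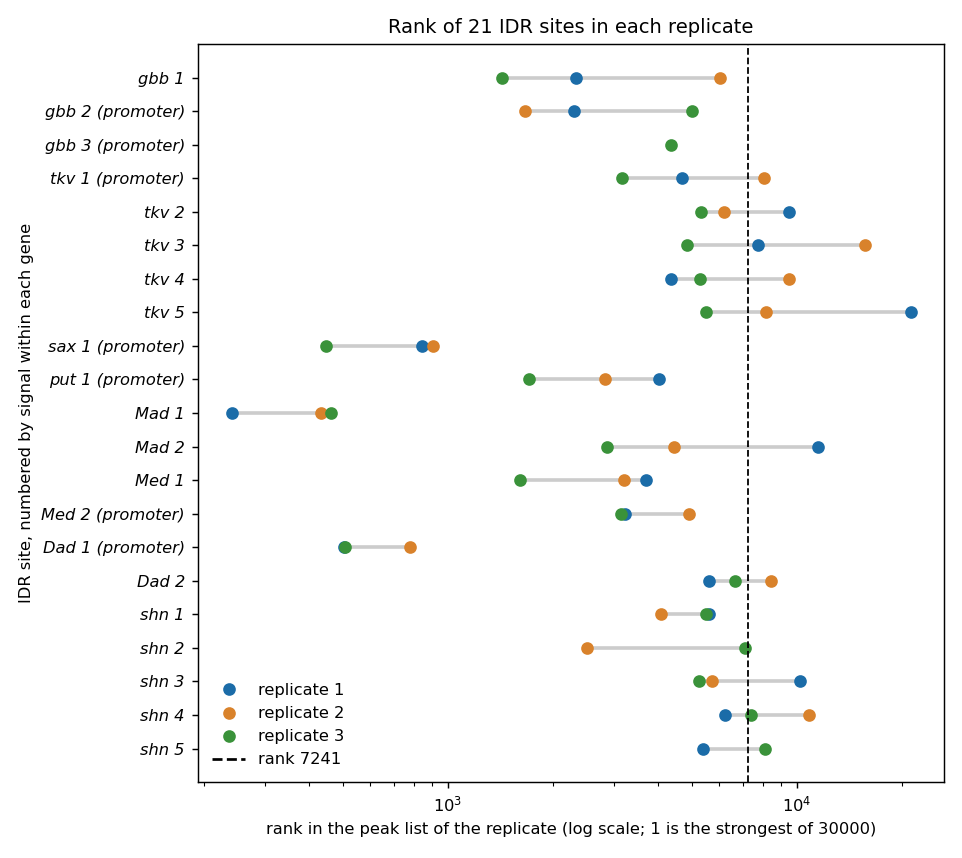
Rank of each of the 21 IDR sites (y axis, numbered by signal within each gene) in the peak lists of replicates 1, 2 and 3 (x axis, log scale, strongest to the left), with a dashed line at rank 7241. Points of a replicate are missing where no summit lay within 150 bp; the first sites of Mad, sax and Dad stand at ranks 240 to 907 and all other points at 1426 or beyond.

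The transducer gene Mad held the strongest site of the 9 genes, away from its promoters. Mad (FBgn0011648, chr2L:3146056-3159643, minus strand) has 2 TSSs, and its first site lay in an intron, 925 bp downstream of the first. It had a signal value of 1162, rank 398 in the IDR list, and a peak 486 bp wide, and it ranked 240, 433 and 462 in replicates 1, 2 and 3. Relative to the median IDR site of each replicate the signal was 3.31, 2.52 and 2.70, a mean of 2.84 ± 0.418 (SD, n = 3). The second site of Mad lay 645 bp upstream of the second TSS, also in an intron, with a signal value of 433 and ranks of 11516, 4460 and 2859, none of which overlap those of the first. The first TSS of Mad lies 307 bp from that of the divergent gene gkt, and no IDR summit lay within 500 bp of it. The nearest pooled summit there, 186 bp away, ranked 14803 and had a match in replicate 2 only. Counted within 1000 bp of a TSS, Mad had a promoter summit.

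Med (FBgn0288966, chr3R:31611046-31615375, plus strand), the fly Smad4 that partners Mad, had 2 IDR summits, both upstream of its single TSS and both in introns of the divergent cyclin gene CycG. The one 11 bp upstream had a signal value of 445 and ranked 3208, 4896 and 3131 in replicates 1, 2 and 3. The stronger one, 1152 bp upstream, had a signal value of 607 and ranked 3696, 3197 and 1605, but it is nearer to another TSS of CycG, at 79 bp. The ranks of the pair overlapped. Another pooled summit, 1948 bp upstream and below the IDR threshold, had a match in all 3 replicates at ranks of 8148, 12062 and 10262.

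Dad, an inhibitory Smad and a known target of the pathway, had a strong site upstream. Dad (FBgn0020493, chr3R:17054007-17070408, plus strand) has 2 TSSs, and its first site lay 405 bp upstream of the first, with a signal value of 1032 and ranks of 504, 781 and 506 in replicates 1, 2 and 3. No TSS of another gene lay within 500 bp of it. The relative signal was 2.55, 2.09 and 2.61, a mean of 2.41 ± 0.282 (SD, n = 3). Within 250 bp of a TSS, in place of 500 bp, Dad had no promoter summit. Its second site, in an intron 10236 bp downstream of the second TSS, had a signal value of 241 and ranked 5592, 8415 and 6668. This second site is nearer to a TSS of Ns1, at 7542 bp.

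shn (FBgn0003396, chr2R:11159086-11217394, plus strand) encodes a large zinc finger protein and, at 58309 bp, is the longest of the 9 genes. shn carried 5 IDR summits, all in introns and none within 500 bp of any of its 5 TSSs. Their signal values were 311, 294, 278, 200 and 199, all below the median of 416 over the IDR list, and the last 2 stood at ranks 7074 and 7100 of 7241. The strongest lay 3423 bp upstream of TSS 4 and ranked 5605, 4085 and 5497 in replicates 1, 2 and 3, but the matching summits were 133, 97 and 80 bp away from it. The matching summits of replicates 1 and 2 were also the match of a pooled summit below the IDR threshold, at 67 and 103 bp, so in these replicates 1 summit stands for both. Sites 2453 and 1186 bp upstream of the same TSS made it a run of 3. The site at 2453 bp had no match within 150 bp in replicate 1 and ranked 2498 in replicate 2 and 7093 in replicate 3. The site 1728 bp upstream of TSS 5 had no match in replicate 2. The first TSS had no IDR summit within 8983 bp and no pooled summit within 6985 bp, while TSSs 2, 3 and 4 had pooled summits below the threshold at 229, 268 and 58 bp.

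Set side by side, 3 genes of different roles stood above the rest. The first sites of Mad (transducer), Dad (inhibitor) and sax (receptor) had relative signals of 2.52 to 3.31, 2.09 to 2.61 and 1.99 to 2.74 over the replicates, and those 3 ranges overlapped. The strongest sites of gbb, Med and put followed, at means of 1.23 ± 0.570, 1.23 ± 0.355 and 1.22 ± 0.337 (SD, n = 3). Their highest single value was 1.74, below every value of the first 3 genes. The gbb and Med sites used here were nearest to TSSs of other genes, eIF6 at 13 bp and CycG at 79 bp. tkv and shn came last, at 0.791 ± 0.324 and 0.748 ± 0.121 (SD, n = 3). The values of tkv overlapped those of gbb, Med and put, while those of shn overlapped gbb but lay below Med and put. The shn values are less certain, since no replicate summit lay within 75 bp of its site. Those of replicates 1 and 2 also matched a pooled summit below the IDR threshold. No test was run between sites, since an exact paired permutation test over 3 replicates cannot give a two-sided p below 0.25.

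**Figure D3:**
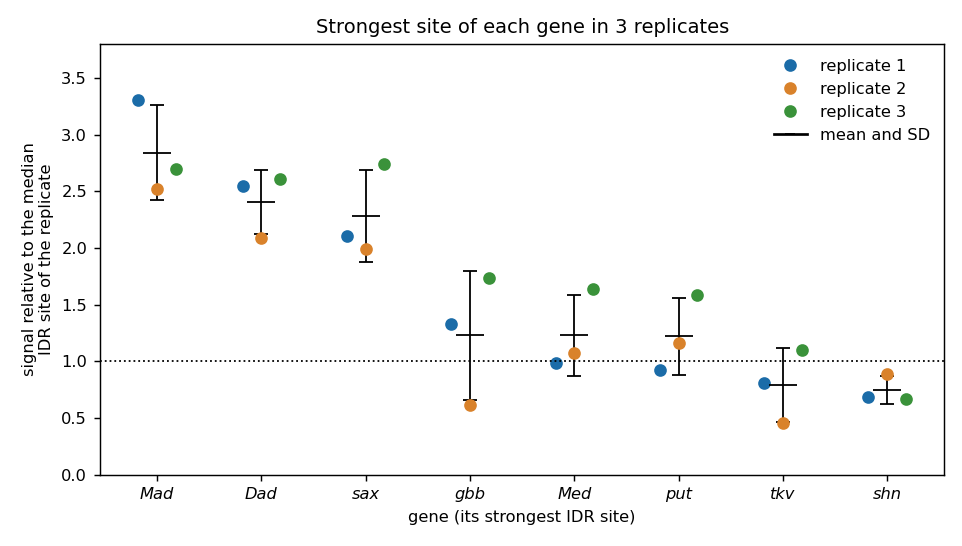
Signal of the strongest IDR site of each of 8 genes in each replicate (points) relative to the median IDR site of that replicate (y axis, dotted line at 1), with mean and SD (black; n = 3). Mad, Dad and sax lie at 1.99 or above in every replicate, and the highest point of the other genes is 1.74. The gbb and Med sites are nearest to TSSs of eIF6 and CycG. The shn summits of replicates 1 and 2 also match another pooled summit.

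By role, the median replicate rank of the strongest site was 2331 for the ligands, where it rests on gbb alone, 2823 for the 3 receptors and 1815 for the 2 transducers. Without replicate 1 the ligands stood at 3734 and the receptors at 2267, and without replicate 3 at 4186.5 and 3427.5. The order of ligands and receptors thus turned for these sites, while the transducers stayed first. They stood at 1424.25, 1500.75 and 1891.5 without replicates 1, 2 and 3. The sites were those strongest in the full IDR list and were not chosen anew. The second gbb site, not used here, ranked 2292 and 1663 in replicates 1 and 2, so the turn without replicate 3 depends on that choice. Among receptors the median rank ran from 842 for sax to 4687 for tkv, and the transducers stood at 433 for Mad and 3197 for Med. The gbb and Med sites behind these ranks were nearest to TSSs of eIF6 and CycG. When promoter sites alone were used, the transducers were represented by Med at 3208. Per length, the transducer windows held 1.40 IDR summits per 10 kb, the receptor windows 0.884 and the ligand windows 0.646. These values rest on 4, 7 and 3 summits. The ligand value joins 0 for dpp and 3.0 for gbb, and the transducer value joins 1.08 for Mad and 2.0 for Med. The windows of gbb and Med, at 10001 bp each, were the shortest of the 9. All 9 windows together held 0.879 per 10 kb, and the windows of all protein-coding genes, summed, held 0.941.

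Of the 21 sites 7 lay within 500 bp of a TSS of their own BMP gene and 14 did not, and 12 lay in introns of their own gene. Over 500 bp from the TSS of any gene lay 12 of the 21, or 57.1%, against 31.9% of all IDR summits, and these comprised 5 in shn, 4 in tkv, 2 in Mad and 1 in Dad. The windows of shn and tkv span 63309 and 57385 bp, beside a median of 10001 bp over all protein-coding genes. The share of all IDR summits was not taken over windows of like length, so the 2 shares come from unlike sets. The median signal value was 445 at the 7 sites at promoters of the BMP genes and 286 at the other 14. The latter include the first sites of gbb (597) and Med (607), which lie within 500 bp of TSSs of eIF6 and CycG. Of the 9 genes 5 share a divergent promoter with another coding gene within 1000 bp (gbb, sax, put, Mad and Med), as do 36.2% of all protein-coding genes. Of such genes 70.9% had a promoter IDR summit genome-wide, and 4 of the 5 did here, Mad being the exception. Of genes without such a neighbour 25.7% had one, and tkv and Dad did here while dpp and shn did not. Only 14 of the 21 summits were nearest to a TSS of the BMP gene itself, and which gene a summit acts on was not tested.

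The sites were found in most replicates, but less so in replicates 1 and 2. A match within 150 bp was present in all 3 replicates for 18 of the 21 sites, or 85.7%, against 90.9% of all IDR summits. Among the strongest 7241 summits of replicates 1, 2 and 3 there were 14, 13 and 19 of the 21 sites, against 81.1%, 80.0% and 92.8% of all IDR summits. Below the IDR threshold a further 70 pooled summits fell in the windows of the 9 genes, and 8 of them, or 11.4%, had a match in all 3 replicates, against 14.3% of the 22756 pooled summits below the threshold. Those 8 comprised 4 at tkv, 3 at shn and 1 at Med, and 1 of the 3 at shn is the summit that shares its matches with the strongest shn site in replicates 1 and 2.

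The 8-base DRE was found in 3 of the 21 windows of 100 bp to either side (14.3%; gbb, tkv and sax). This share is close to that at all IDR summits, 12.0%, and windows 1000 bp away had it in 0.601%. The gbb match lies 1250 to 1257 bp from the TSS of gbb, at the site that is 13 bp from a TSS of eIF6. The M1BP core was found at 1 site and in 11.2% of all IDR windows, the motif 7 core at 1 site and in 6.02%, and CAGCTG at 1 site and in 14.0%. GAGAG was found at 2 sites, in Mad and upstream of Med, and in 19.8% of all IDR windows and 22.0% of flanks. The match upstream of Med lies 1088 to 1092 bp from its TSS, at the site that is 79 bp from a TSS of CycG. The Zelda word CAGGTAG was found at none, and in 0.594% of all IDR windows. Words that Mad and Med are known to bind were less frequent at IDR summits than in the flanks, with GNCGNC in 5 of the 21 windows, 29.2% of all IDR windows and 41.4% of flanks, and GTCTG in 2 of the 21, 18.2% and 23.8%. Motif matches can overlap, and a match is a description of the letters only.

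A further 40 genes of the BMP branch and the separate Activin branch were examined by the same rules. Of these 14, or 35.0%, had a promoter IDR summit, beside 42.1% of all protein-coding genes, and 23, or 57.5%, had an IDR summit in the window, beside 65.3%. The intracellular components had promoter summits in 5 of 6 genes. They were nmo, a kinase that phosphorylates Mad (914), Snoo, a Ski family corepressor (527), Smox, the Smad of the Activin branch (491), Dd, a phosphatase (375), and Smurf, a ubiquitin ligase that acts on Mad (243), with signal values in parentheses, and CtBP had none. The nmo summit ranked 609, 976 and 849 in replicates 1, 2 and 3.

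Of 13 extracellular modulators 6, or 46.2%, had a promoter summit, which is close to the 42.1% of all protein-coding genes. They were the tolloid-related protease gene tok (560), the glypican gene dlp (440), magu (379), srw (266), cv (265) and the BMP antagonist gene sog (250). The dlp summit had no match in replicate 1, and that of sog ranked 7695, 10230 and 5594 in replicates 1, 2 and 3. tsg, tld, cv-2, dally, Fs, Col4a1 and vkg had none. Of 5 further ligand genes 1, or 20.0%, had a promoter summit, namely Actbeta, an Activin, with a signal value of 1016, and scw, mav, daw and myo had none. The receptor genes wit and babo had none at their promoters, and each had an IDR summit elsewhere in the window.

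Of the target genes of the pathway, 14.3% had a promoter IDR summit, beside 42.1% of all protein-coding genes. Of 14 targets bam, the differentiation factor that BMP signals silence in germline stem cells, had a promoter summit with a signal value of 760, at 494 bp from its TSS, and ush had one with 238, while brk, salm, bi, vg, Ance, pnr, peb, zen, tup, Doc1, Doc2 and Doc3 had none. These calls depend on the cut-off. Within 1000 bp of a TSS, brk and Ance had an IDR summit too. In the pooled list, where 56.1% of all genes had a promoter summit, brk, salm, Ance and peb had one as well. In the window, 4 of the 14 targets, or 28.6%, had an IDR summit, beside 65.3% of all protein-coding genes. ush, a cofactor of GATA factors, had 11, with a highest signal value of 1158. The length of the ush window was not set beside this count. The ush promoter summit ranked 8075 and 5313 in replicates 1 and 3 and had no match in replicate 2. Of the 14 genes with a promoter summit 9 had the nearest TSS themselves, and the summits at cv, srw, magu, Smurf and Dd were nearer to a TSS of PGAP1, CG1316, sel, CG30105 and CG1486.

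**Figure D4:**
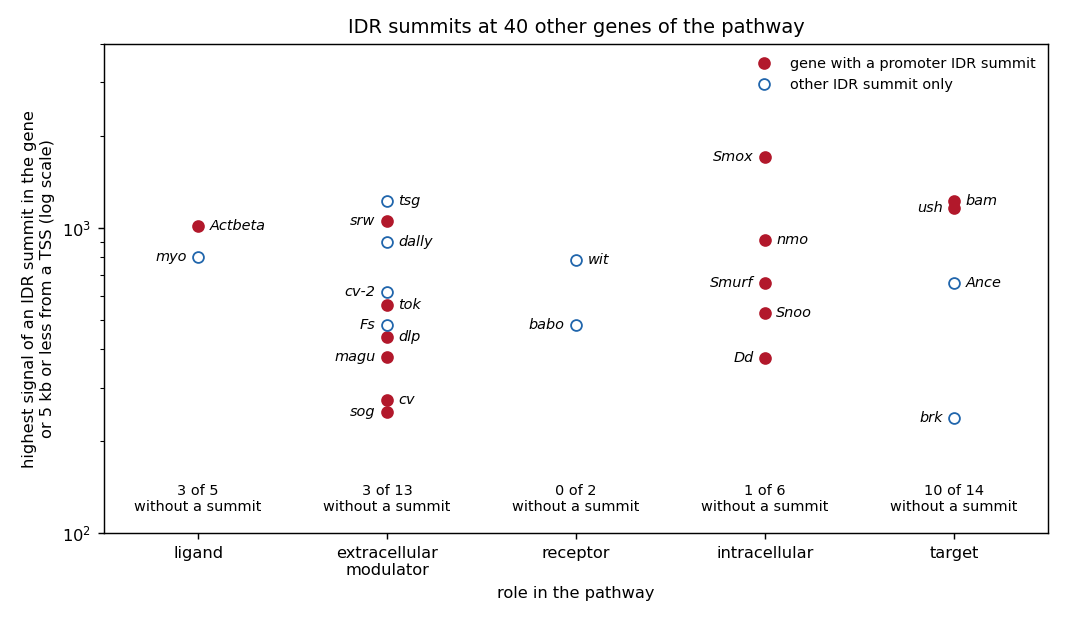
Highest signal value (y axis, log scale) of an IDR summit inside each of 40 other pathway genes or within 5 kb of a TSS, by role (x axis), filled where the gene has a promoter IDR summit. Genes without any IDR summit are counted at the bottom; they make up 10 of 14 targets and 1 of 6 intracellular components.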

How the data were processed

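The 3 libraries form 1 group of biological replicates by their labels. Per the deposited text files, the authors called peaks on each library and on all 3 pooled, against 1 control library, and derived the IDR list from these 4 lists. Which aligner and peak caller they ran, and at what IDR threshold, is not given in the sources used here. Read depth is unknown. Each deposited list gives a signal value and the −log10 of a q-value per peak; the latter was not used. The build is dm6, per the labels, the same Release 6 as the reference genome. Genes and TSSs came from Ensembl BDGP6.54, without transposable elements as TSS sources; all 9 symbols and the 40 others matched.

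Summits on the 6 main arms were assigned to genes with Python 3.11.15 and pandas 2.3.3. The assignment was tested on simulated summits at 200 genes, all placed rightly. Sites were matched to the nearest summit within 150 bp in each replicate. Shares called are given over all 13945 protein-coding genes. No set test was run. The members and the lists were chosen with earlier results of these data known. All 9 members are named, as is each other pathway gene, with its value if it has a promoter IDR summit; genes of no list are named where their TSS is nearest to a summit or they share a promoter. Alternatives covered peak lists, replicates left out, distances and the nearest TSS.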

Additional observations from a re-analysis of the deposited data

How the results depend on the processing

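With 1 replicate left out, and a consensus of the strongest summits of the others in place of the IDR list, there were 5 to 6 genes with a promoter summit, 7 to 8 with a summit in the window, 10 to 14 summits and 11 to 12 of the other pathway genes. Main values were 6, 8, 21 and 14. Among the settings of this section, shares of all protein-coding genes were computed only for the main one and for all pooled peaks. The other counts therefore show how the calls moved, and not whether they are high or low for genes at large. The number of summits was 10 in the consensus of all 3 replicates and 9 in the stricter 50% of the IDR list by signal, where 7 other pathway genes kept a promoter summit. All pooled peaks, with no IDR threshold, gave 91 summits and 25 other pathway genes. Counting each summit only for the gene with the nearest TSS gave 9 other pathway genes. Within gene bodies alone there were 4 genes with 13 summits, because the summits of gbb, sax, put and Med and the first of Dad lie upstream. The median rank of the transducers moved from 1815 to 3208 with promoter sites only, where Mad has none. No paired analysis was possible because there is 1 group, so no groups share replicate numbers; sites were set side by side within replicates with no test. Rank order among sites is limited by the spread of 3 replicates, and depth could not be assessed. No replicate summit lay within 75 bp of the strongest site of shn, so that alternative gave no value for it.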
